A study of Homo sapiens with 12 samples.

Results

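The human zinc-finger genes described here are 47 genes of the long arm of chromosome 19, out of 61163 genes in the count tables. They lie in a pair of clusters, 27 genes at 19q13.12 (chr19:36182060-37779586 of GRCh38, 1.60 Mb) and 20 genes at 19q13.43 (chr19:57614242-58489533, 0.875 Mb). The list holds KRAB and related zinc-finger genes of the clusters around ZFP82 and ZNF544, and both of these genes drew attention because of their counts in the knockout. The members were therefore chosen with this difference known, and every value of HEK UL1 KO against HEK WT below is a description without a test. Total RNA was sequenced from the nucleolar fraction (NO) and from the combined cytoplasmic and nuclear fraction (CN) of HEK293T cells, an established human embryonic kidney line that expresses a viral large T antigen. HEK WT cells were unedited, whereas HEK UL1 KO cells carry a CRISPR-Cas9 knockout of HNRNPUL1, which encodes an RNA-binding protein of the hnRNP family. No drug or time course was part of these groups, and whether the knockout line is a single clone is not given in the sources used here. Each of the 4 groups has 3 replicates, and since nothing says that these were separate cultures, the spread between them may be technical.

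Proteins of this family bind DNA through arrays of C2H2 zinc fingers. In most of them a KRAB domain recruits the corepressor TRIM28, which in turn brings the histone methyltransferase SETDB1 and heterochromatin proteins, so the best known targets, many of them transposable elements, are silenced. The genes arose largely by tandem duplication, which left them in clusters that are most numerous on chromosome 19, and neighbouring genes are often close paralogs. Some members depart from this scheme: ZSCAN18 and ZSCAN22 carry a SCAN domain, and ZNF146 consists of little more than zinc fingers. ZNF274 binds the ends of other zinc-finger genes and takes part in their heterochromatin.

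The promoter windows of 5 members are printed because these genes mark the extremes of the data: ZFP82 and ZNF544 were nearly uncounted in CN of HEK WT and plainly counted in HEK UL1 KO, ZNF671 and ZNF135 were nearly uncounted in both, and ZNF146 had the highest level per length in both. Each window runs from 250 bases before to 50 bases after the start site, is written 5′ to 3′ on the strand of the gene, and comes from RefSeq on GRCh38.p14. Capitals mark CpG dinucleotides, the sites at which promoters can be methylated. The windows are chr19:36418595-36418894 (minus strand) for ZFP82, chr19:58228664-58228963 (plus) for ZNF544, chr19:57727575-57727874 (minus) for ZNF671, chr19:58058989-58059288 (plus) for ZNF135 and chr19:36214856-36215155 (plus) for ZNF146.
ZFP82: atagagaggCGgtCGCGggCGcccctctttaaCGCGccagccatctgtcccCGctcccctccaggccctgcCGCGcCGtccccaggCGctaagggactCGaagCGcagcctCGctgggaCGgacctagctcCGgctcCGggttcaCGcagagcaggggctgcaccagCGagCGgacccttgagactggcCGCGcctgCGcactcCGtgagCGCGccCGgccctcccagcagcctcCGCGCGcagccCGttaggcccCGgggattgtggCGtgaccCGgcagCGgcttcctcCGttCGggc
ZNF544: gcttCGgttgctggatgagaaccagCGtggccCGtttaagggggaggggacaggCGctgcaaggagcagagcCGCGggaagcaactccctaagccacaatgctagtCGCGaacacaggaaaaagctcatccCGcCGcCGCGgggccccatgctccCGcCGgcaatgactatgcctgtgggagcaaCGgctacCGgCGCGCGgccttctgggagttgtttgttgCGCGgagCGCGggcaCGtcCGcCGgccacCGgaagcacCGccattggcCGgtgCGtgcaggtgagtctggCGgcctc
ZNF671: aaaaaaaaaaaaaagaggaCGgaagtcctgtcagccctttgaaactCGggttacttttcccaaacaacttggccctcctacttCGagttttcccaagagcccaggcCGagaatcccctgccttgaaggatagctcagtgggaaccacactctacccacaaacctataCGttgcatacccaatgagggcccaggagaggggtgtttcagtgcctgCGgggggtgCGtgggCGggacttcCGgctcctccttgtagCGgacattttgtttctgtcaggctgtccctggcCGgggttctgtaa
ZNF135: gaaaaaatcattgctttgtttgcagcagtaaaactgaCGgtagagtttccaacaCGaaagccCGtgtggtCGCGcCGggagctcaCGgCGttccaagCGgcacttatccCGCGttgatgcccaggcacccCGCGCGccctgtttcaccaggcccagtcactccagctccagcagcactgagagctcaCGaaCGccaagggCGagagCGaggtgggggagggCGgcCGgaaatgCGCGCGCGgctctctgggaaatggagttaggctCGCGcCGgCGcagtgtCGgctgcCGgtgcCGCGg
ZNF146: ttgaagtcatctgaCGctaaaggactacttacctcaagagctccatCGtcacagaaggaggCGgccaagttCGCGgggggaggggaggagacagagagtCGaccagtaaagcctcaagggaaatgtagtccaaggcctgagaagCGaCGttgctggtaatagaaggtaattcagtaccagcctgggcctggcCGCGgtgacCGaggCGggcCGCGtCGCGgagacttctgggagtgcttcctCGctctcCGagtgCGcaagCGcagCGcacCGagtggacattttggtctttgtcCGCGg

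RefSeq gave a window for 43 of the 47 members. The ZFP82 window held 37 CpG, the highest number among the 43, and the ZNF544 window held 31. ZNF135, which stayed nearly uncounted, had a similar number, 32, while ZNF671 had 11, the lowest. ZNF146 had 24. The median was 23 CpG over the members, 14 over all 35116 RefSeq windows of the same length and 21 over the 22199 windows of protein-coding genes. Members that were counted in CN of HEK WT and members that were not thus overlapped in this number.

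Motifs were searched as plain letters on both strands. CCGGAAG, the core that ETS factors bind, stood in 20 of the 43 windows (46.5%), compared with 10.3% of all windows and 12.8% of the coding ones. It contains a CpG, so each match also adds to the CpG count. The clusters differed in this respect, with the motif in 7 of 25 windows at 19q13.12 and in 13 of 18 at 19q13.43. ZNF544 and ZNF671 held it, and ZFP82, ZNF135 and ZNF146 did not. Some windows of adjacent genes overlap, as for ZNF461 with ZNF567 and ZNF829 with ZNF568, which all held the motif. A single site may then count for both genes, and paralogs may share promoter sequence, so the windows are not independent. The other motifs were GGGCGG (41.9% of member windows, 45% of all), CCAAT (32.6% and 34.6%), TATAAA (2.33% and 11.5%) and AAGATGG (9.30% and 5.84%). A match describes letters in the window only.

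Total counts per library lay between 37141666 and 104040073, of which 55.3 to 78.7% came from rRNA genes, because rRNA was not depleted. Replicate 3 of NO in HEK WT stood apart from the other replicates of its group, with a TMM normalization factor of 1.71 beside 0.897 and 0.823. The factors of NO in HEK UL1 KO were 1.58, 1.41 and 1.39, nearer to that of replicate 3. Which of the HEK WT libraries is unusual cannot be told from these values. Values of single genes in NO of HEK WT are also given without replicate 3, as an alternative and not as a correction. Replicate 3 of CN in HEK WT had a factor of 0.573 beside 0.787 and 0.824, and the highest share of rRNA, 78.7%. HNRNPUL1 lies between the clusters, at chr19:41262557-41307787, 3.48 Mb from the nearer and 16.3 Mb from the farther. Its level in HEK UL1 KO was lower in both fractions, with a log2 fold change (log2FC) of -1.83 in CN (standard error, SE, 0.08) and of -2.0 in NO (SE 0.32; -2.27 without replicate 3 of NO in HEK WT), with no overlap between genotypes. Among 9 genes known from HEK293T cells, 8 or 9 had at least 10 counts in every library of each group, and their summed level was 75.6 to 90.4 CPM in CN of HEK WT and 48.6 to 55.8 in CN of HEK UL1 KO, 32.2 to 53.2 in NO of HEK WT and 25.9 to 32.7 in NO of HEK UL1 KO. Abundant genes carried this sum, such as VIM with 2278 to 2993 counts in CN of HEK WT and 616 to 912 in CN of HEK UL1 KO, whereas 4 of the 9 were called higher and 3 lower in CN, with a median log2FC of 0.02, and 0 higher and 2 lower in NO. Of all genes tested, 15.6% were called higher and 22.3% lower in CN, and 0.365% and 0.574% in NO. The summed level of 9 markers of other lineages was 0.537 to 1.38 CPM in CN of HEK WT, 1.77 to 2.36 in CN of HEK UL1 KO, 2.92 to 5.24 in NO of HEK WT and 4.82 to 5.79 in NO of HEK UL1 KO, and none was at 0 in every library of a group. The part of these shifts in the results below was not tested, and in such bulk samples fewer expressing cells and less RNA per cell cannot be told apart.

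Levels are given as CPM, counts scaled by the size of the library and its TMM factor, and genes are compared with each other only per kilobase of exon. On that scale, in CN of HEK WT, the 47 members spread from 0.00630 to 6.69 CPM per kb with a median of 0.265, and 7 of them were under 0.1. In HEK UL1 KO the span was 0.0113 to 4.77 with a median of 0.350, and 5 were under 0.1. ZNF146 ranked 1 in both genotypes, with 6.69 ± 0.128 CPM per kb (SD, n = 3) in HEK WT and 4.77 ± 0.297 in HEK UL1 KO. ZNF544 moved from rank 44 (0.0249 ± 0.0115 CPM per kb) to rank 2 (1.25 ± 0.119). ZFP82 moved from rank 45 (0.0123 ± 0.00434) to rank 30 (0.266 ± 0.0265). ZNF529 at rank 3 (1.16 ± 0.0479 CPM per kb) lay within the SD of ZNF544 at rank 2, so their order is uncertain.

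**Figure D1:**
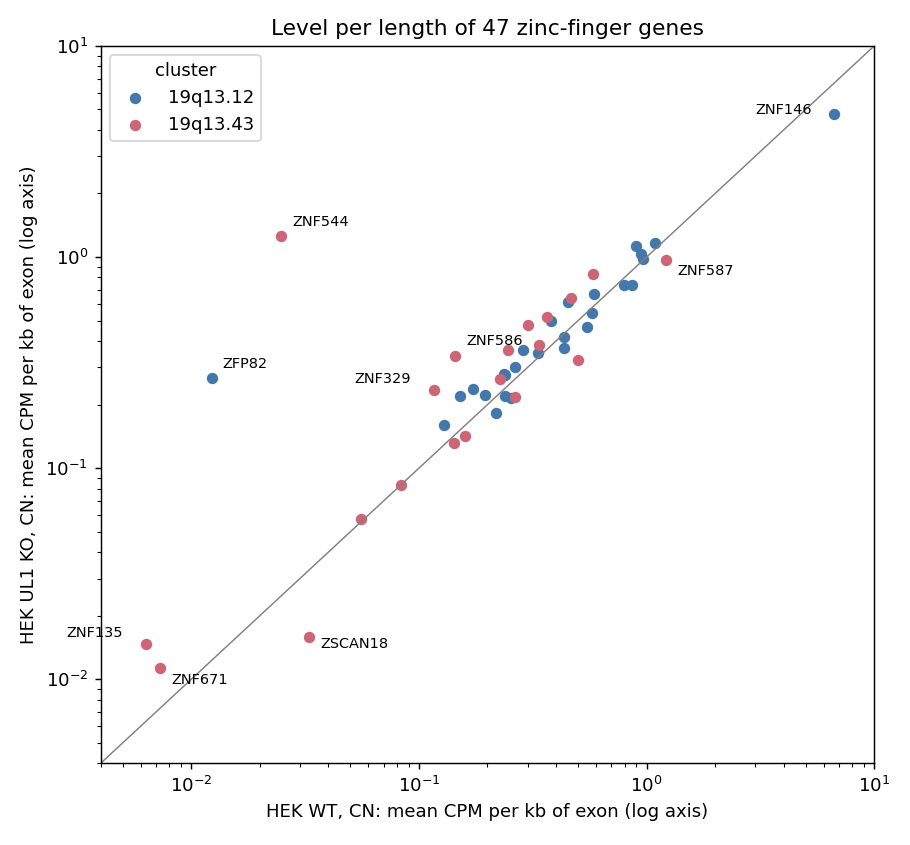
Mean level of each of the 47 zinc-finger genes in CN, in CPM per kb of exon on log axes, in HEK WT (horizontal) and HEK UL1 KO (vertical), with 1 point per gene coloured by cluster and the diagonal marking equal levels. Most points lie near the diagonal, ZNF544 and ZFP82 lie far above it (0.0249 against 1.25, and 0.0123 against 0.266), and ZNF135 and ZNF671 stay at the bottom left.

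ZNF544, a KRAB zinc-finger gene on the plus strand of 19q13.43 (chr19:58228914-58277455), showed the widest difference of the list. In CN it was counted 15, 15 and 5 times in the 3 HEK WT libraries and 567, 584 and 396 times in the 3 HEK UL1 KO libraries. Its level was 0.140 ± 0.0667 CPM (SD, n = 3) in HEK WT and 7.41 ± 0.626 CPM in HEK UL1 KO, a log2FC of 5.69 (SE 0.22). In NO the counts were 27, 23 and 104 in HEK WT and 635, 259 and 260 in HEK UL1 KO, or 1.05 ± 0.608 and 5.98 ± 0.211 CPM, a log2FC of 2.46 (SE 0.34). Every HEK UL1 KO library was above every HEK WT library in both fractions, and the 104 counts of the HEK WT group came from the library that stands apart. Without that library the log2FC in NO was 3.07, and without replicate 3 of HEK WT in CN that in CN was 5.41.

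ZFP82, on the minus strand of 19q13.12 (chr19:36383120-36418644), also encodes a KRAB zinc-finger protein. Its counts in CN were 9, 9 and 4 in HEK WT and 138, 167 and 114 in HEK UL1 KO. These correspond to 0.0884 ± 0.0327 and 2.01 ± 0.186 CPM (SD, n = 3) and to a log2FC of 4.47 (SE 0.25). In NO, 13, 13 and 37 counts in HEK WT stood against 189, 68 and 77 in HEK UL1 KO, which is 0.453 ± 0.152 and 1.70 ± 0.103 CPM and a log2FC of 1.87 (SE 0.33). Again the genotypes did not overlap in either fraction, and without replicate 3 of HEK WT the log2FC was 2.20 in NO and 4.26 in CN.

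The genes next to these did not share the size of the difference. In chromosome coordinates, ZFP14 lies 3.92 kb before ZFP82, and it had a log2FC of -0.04 in CN (SE 0.16). ZNF566 lies 26.5 kb after ZFP82 and had -0.03 (SE 0.10). On their minus strand, ZFP14 is thus downstream of ZFP82, and ZNF566 is upstream of it. Beside ZNF544, ZNF274 lies 15.4 kb before it with a log2FC of 0.63 in CN (SE 0.13), and ZNF8 begins 1499 bases after it with 0.26 (SE 0.12). All of these genes lie on the same strand as the member beside them. ZNF8-DT, whose exons overlap those of ZNF544 on the other strand, had 66, 76 and 82 counts in HEK WT and 43, 52 and 44 in HEK UL1 KO in CN, a log2FC of -0.43 (SE 0.19) that did not pass. The strand setting of the counting is not given in the sources used here, and for the 20 members with exons that overlap a gene of the opposite strand, reads of the partners may not be told apart.

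**Figure D2:**
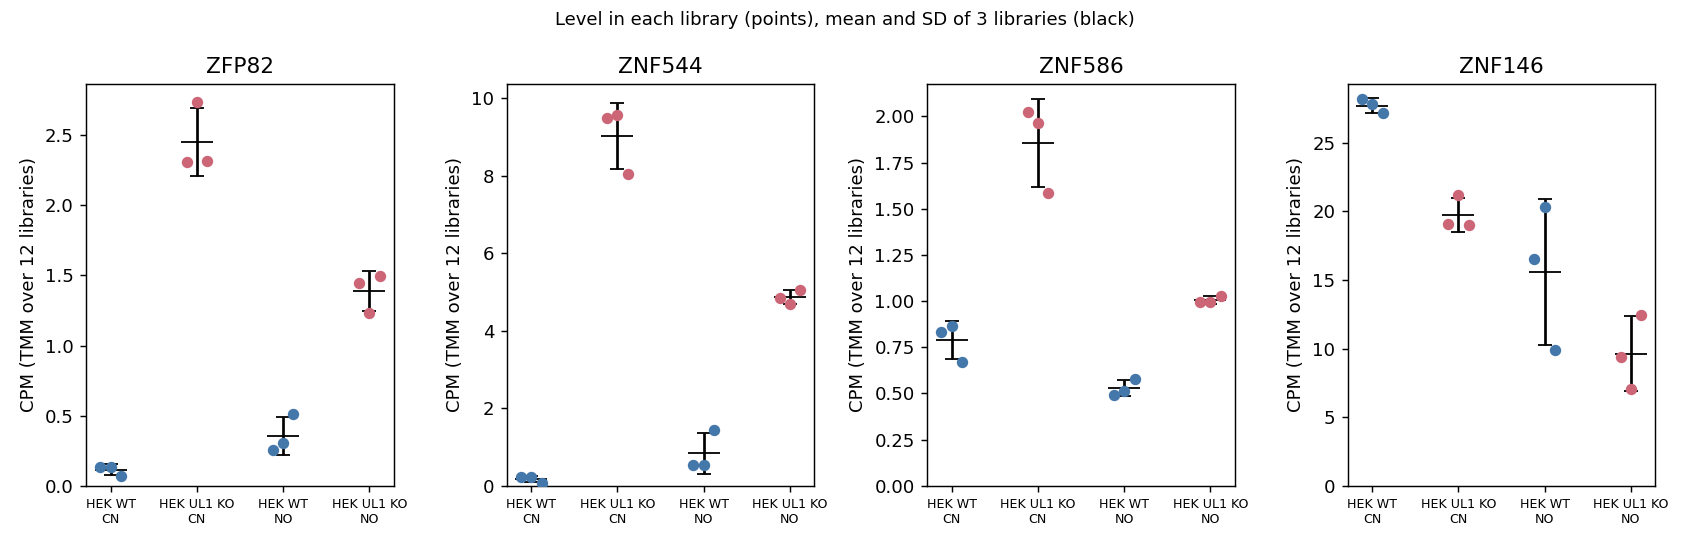
Level of ZFP82, ZNF544, ZNF586 and ZNF146 in each of the 12 libraries, in CPM scaled over all 12, by genotype and fraction; points are libraries and black lines the mean and SD of 3. ZFP82 and ZNF544 are low in all 6 HEK WT libraries and high in all 6 HEK UL1 KO libraries, ZNF586 differs by less, and ZNF146 is lower in CN of HEK UL1 KO than in CN of HEK WT.

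At the other end of the list, ZNF671 and ZNF135 were left out of the fit in CN because too few reads fell on them. ZNF671 had 0 to 4 counts in the HEK WT and 1 to 3 in the HEK UL1 KO libraries of CN, and 2 to 15 and 3 to 10 in NO. ZNF135 had 0 to 4 and 2 to 9 counts in CN, and 2 to 34 and 3 to 22 in NO. No difference between the genotypes was detectable for this pair at this depth. ZNF671 was also left out of the fit in NO, where ZNF135 had a log2FC of -0.36 (SE 0.66), a value that turned to 1.30 without replicate 3 of HEK WT.

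In CN, 45 of the 47 members passed the filter on low counts, and with an adjusted p under 0.05 in edgeR's quasi-likelihood test 15 counted as higher and 3 as lower in HEK UL1 KO, while 27 did not pass. Over all genes tested in CN, 15.6% were higher and 22.3% lower. Because the members were chosen on this contrast, nothing is read from the counts. The median log2FC was 0.26 over the members and 0.04 over all genes, and without ZFP82 and ZNF544 it was 0.21. For 20 members every HEK UL1 KO library was above every HEK WT library (24.7% of all genes), and for 6 every such library was below (28.1% of all genes). Apart from ZFP82 and ZNF544, the log2FCs lay between -0.97 (ZSCAN18, not called) and 1.31 (ZNF586).

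At 19q13.12, 7 of 27 members were called higher and 1 lower, with a median log2FC of 0.21. After ZFP82, the 3 genes with the largest rise among those that averaged 50 or more counts were ZNF382, ZNF585B and ZNF850. ZNF382, a KRAB gene described as silenced by methylation in tumours, had 1.62, 1.54 and 1.40 CPM in HEK WT and 2.00, 2.20 and 2.41 in HEK UL1 KO, a log2FC of 0.53 (SE 0.13). ZNF585B had 2.59, 2.88 and 2.44 CPM against 4.01, 3.92 and 3.46, also a log2FC of 0.53 (SE 0.11). ZNF850 had 2.22, 2.62 and 2.10 CPM against 3.60, 3.05 and 3.01 (0.48, SE 0.13). In each of these the genotypes did not overlap. ZNF585A, the close paralog of ZNF585B that lies next to it, had a log2FC of 0.41 (SE 0.12), and reads that match both paralogs could have been assigned to either.

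ZNF146 was the only member of 19q13.12 that was called lower. It was counted between 1616 and 1855 times in CN of HEK WT and between 936 and 1293 times in HEK UL1 KO. Its level was 22.0, 22.0 and 20.4 CPM in HEK WT and 15.6, 17.2 and 15.8 CPM in HEK UL1 KO, a log2FC of -0.41 (SE 0.07). The next largest negative values of the cluster were small and did not pass: ZNF345 -0.17, ZNF383 -0.16 and ZNF571 -0.15. The remaining calls at 19q13.12 were ZNF540 with 0.62 and ZNF567 with 0.41, both higher.

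At 19q13.43, 8 of the 18 members in the fit were called higher and 2 lower, with a median log2FC of 0.28. ZNF586 had 0.653, 0.682 and 0.506 CPM in HEK WT and 1.65, 1.60 and 1.32 CPM in HEK UL1 KO, a log2FC of 1.31 (SE 0.18). ZNF256, which has been described as a KRAB repressor, had 0.499, 0.455 and 0.582 CPM against 0.998, 0.786 and 0.793 (0.75, SE 0.21). ZNF274 had 1.62, 1.71 and 1.45 CPM against 2.60, 2.49 and 2.31 (0.63, SE 0.13). The HEK UL1 KO libraries were above the HEK WT libraries without overlap in all of these. The other members called higher were ZNF329 (1.08), ZNF134 (0.59), ZNF776 (0.59) and ZNF551 (0.55).

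Among the lower members of 19q13.43, ZNF587 had 6.97, 6.98 and 6.87 CPM in HEK WT and 5.54, 5.96 and 5.96 in HEK UL1 KO. Its log2FC was -0.25 (SE 0.08), and -0.21 without replicate 3 of HEK WT. ZNF587 was not called when any 1 of the CN libraries was left out. ZNF552, its paralog, had 1.05, 1.33 and 1.09 CPM against 0.848, 0.813 and 0.743, a log2FC of -0.52 (SE 0.17). Neither gene overlapped between genotypes. ZSCAN22 at -0.21 and ZNF324 at -0.08 followed, and both overlapped. ZNF324B, the paralog of ZNF324, had a log2FC of 0.10 (SE 0.31). The calls of ZNF146, ZNF552 and ZNF587 were lost with total counts in place of TMM, and DESeq2 did not call ZNF256, ZNF540, ZNF552, ZNF567, ZNF585A and ZNF850. Among the fits with 1 library left out, ZNF540 was called only without replicate 3 of HEK WT. ZNF552 was called there only without replicate 1 or replicate 3 of HEK WT. The replicate block took the calls of ZNF540 and ZNF552. Some fits with 1 library left out also lost ZNF256, ZNF567, ZNF585A and ZNF850.

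**Figure D3:**
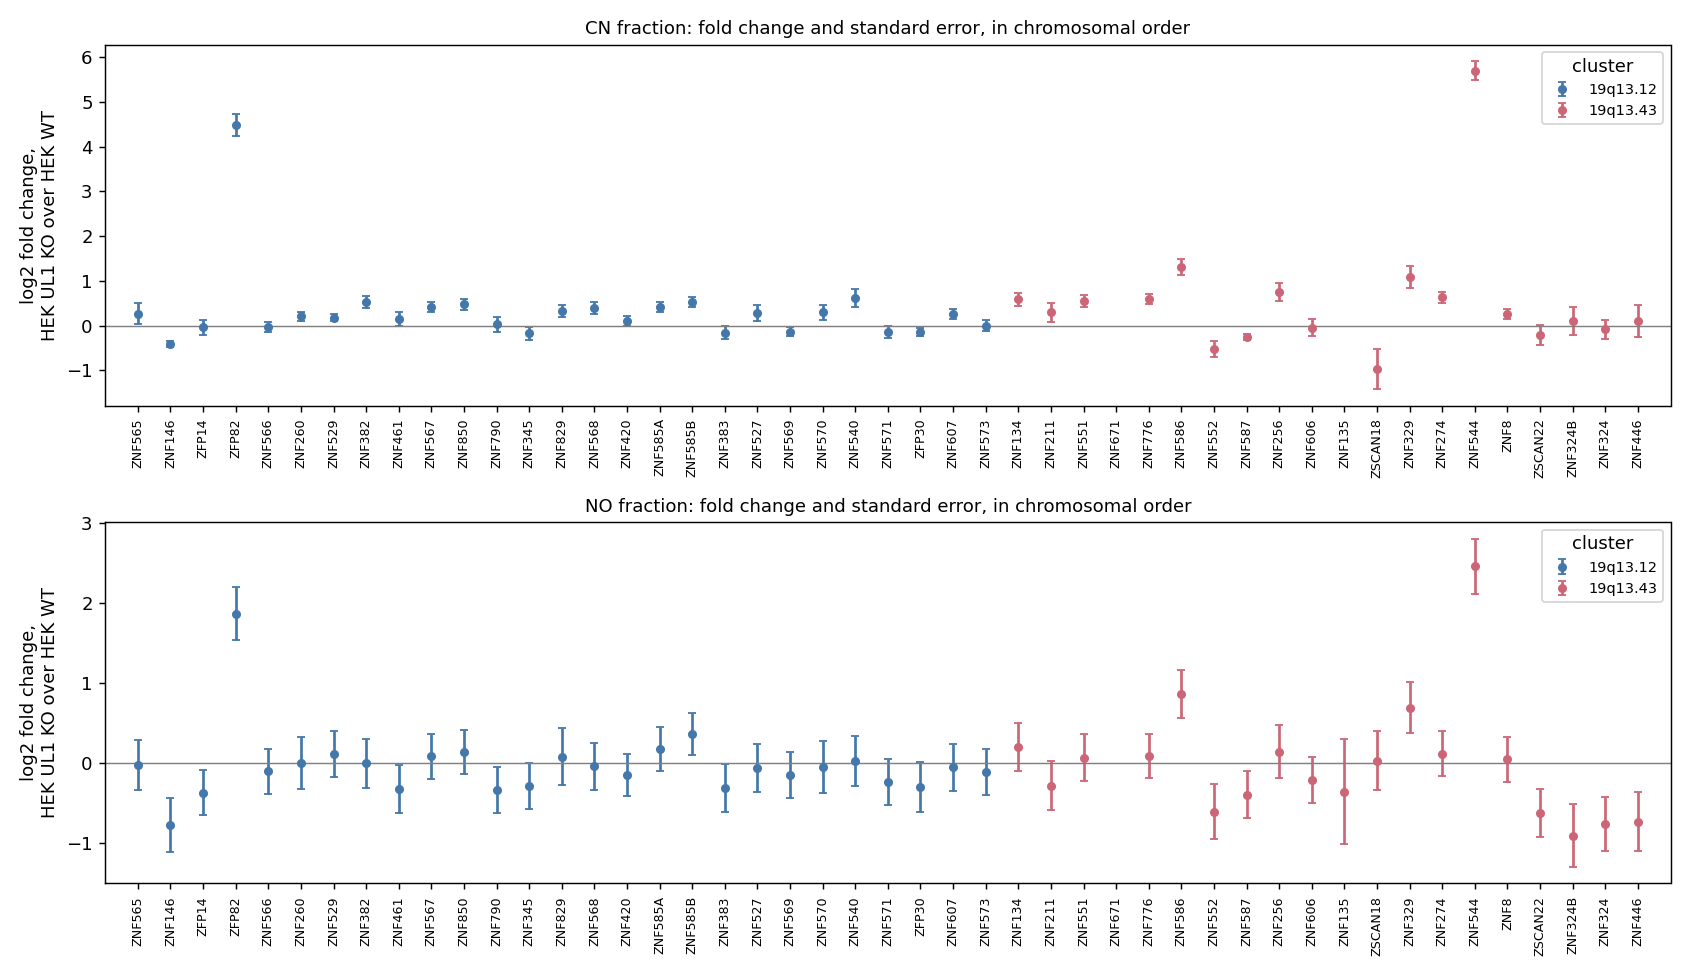
log2FC (HEK UL1 KO over HEK WT) with its SE for each member in chromosomal order, coloured by cluster, in CN (top) and NO (bottom). ZFP82 and ZNF544 reach 4.47 and 5.69 in CN and 1.87 and 2.46 in NO, all other members lie between -0.97 and 1.31, and members left out of a fit for low counts have no point.

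By the start sites of the RefSeq windows, 6 pairs of members at 19q13.12 stand head to head, with a gene on the minus strand and a gene on the plus strand starting close to each other. ZNF565 and ZNF146 start 22 bases apart, and their log2FCs in CN were 0.26 and -0.41. The start sites of ZNF829 and ZNF568 are 41 bases apart, and the values were 0.33 and 0.39. ZNF529 and ZNF382, 56 bases apart, had 0.18 and 0.53, and ZNF461 and ZNF567, 97 bases apart, had 0.15 and 0.41. ZNF790 and ZNF345, 84 bases apart, had 0.03 and -0.17, and ZNF569 and ZNF570, 328 bases apart, had -0.13 and 0.30. Within 3 of the 6 pairs both genes had positive values, and no pair held a value near that of ZFP82.

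In NO, 46 members were in the fit, and ZFP82 and ZNF544 were the only ones called higher, against a background of 0.365% of all genes. By the same test 0 members were called lower, with a background of 0.574%, and 3 were lower at an unadjusted p under 0.05. DESeq2 likewise called 2 higher and 0 lower. The median log2FC was -0.06 over the members and 0.00 over all genes, or -0.18 and 0.09 without replicate 3 of HEK WT. For 5 members, ZFP82, ZNF544, ZNF585B, ZNF586 and ZNF329, every HEK UL1 KO library was above every HEK WT library (11.0% of all genes), and for 7 every such library was below (9.17% of all genes). Without replicate 3 of HEK WT, 6 members were called, 3 in each direction: ZFP82, ZNF544 and ZNF586 were higher, and ZNF146, ZNF324 and ZNF587 were lower. Over all genes that comparison called 9.87% higher and 15.3% lower. ZNF146 had 21.5, 27.0 and 12.1 CPM in HEK WT and 11.1, 9.13 and 15.1 CPM in HEK UL1 KO, so that the genotypes overlapped in the presence of that library (-0.78, SE 0.33; -1.06 without it). ZNF586 had 0.642, 0.681 and 0.709 CPM against 1.17, 1.29 and 1.24 (0.86, SE 0.30; 0.88 without that library) and did not overlap.

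The fractions were compared within each genotype. This contrast was not used in choosing the members, but it shares its CN libraries with the description above. In HEK WT, 45 members were tested and 3 were higher in NO (all genes: 31.9%), while 10 were lower in NO (all genes: 20.9%). In HEK UL1 KO, 46 were tested, 1 was higher in NO (all genes: 40.7%) and 36 were lower (all genes: 35.6%). All 10 members that were lower in NO of HEK WT were also lower in NO of HEK UL1 KO. The median log2FC of NO over CN was -0.28 in HEK WT and -0.81 in HEK UL1 KO, beside 0.02 and 0.03 over all genes, a distance to all genes of -0.29 and -0.84. This distance depended on the genes in the fit, and was -0.05 in HEK WT and -0.36 in HEK UL1 KO with at least 10 counts in every library, and -1.34 and -1.48 with DESeq2. With total counts in place of TMM, the median over all genes rose to 0.37 in HEK WT and 0.79 in HEK UL1 KO, and the members stood at 0.08 and -0.05, so that the direction in HEK WT flipped, while the distance to all genes remained -0.29 and -0.84. The calls were then 2 higher and 0 lower in HEK WT and 7 higher and 0 lower in HEK UL1 KO. Of all genes, 21.8% were then higher and 2.07% lower in HEK WT, and 53.6% higher and 2.39% lower in HEK UL1 KO. The fall in NO with TMM was not particular to the members. In HEK UL1 KO, 22 of 22 corepressor and heterochromatin genes (median -0.85) and 11 of 12 DNA methylation genes (-0.84) were lower in NO. Of the zinc-finger genes at 19q13.41 and 19p12, 23 of 39 (-0.49) and 13 of 35 (-0.32) were lower, and 8 and 13 higher.

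Of the members lower in NO of HEK WT, ZNF529 had 8.87 ± 0.258 CPM (SD, n = 3, scaled over all 12 libraries) in CN and 4.39 ± 0.853 in NO, a log2FC of -0.76 (SE 0.16, adjusted p = 0.00546). In HEK UL1 KO it had 9.49 ± 0.391 and 5.01 ± 1.42 CPM (-0.95, SE 0.18, adjusted p = 0.000745). ZNF566 (-0.75, adjusted p = 0.00601), ZNF260 (-0.74, adjusted p = 0.00697) and ZNF587 (-0.73, adjusted p = 0.0113) were alike in HEK WT. Without replicate 3 of NO in HEK WT these 4 were still called lower (ZNF529 -0.67, ZNF566 -0.69, ZNF260 -0.65 and ZNF587 -0.55). Over the members called lower in NO, the log2FCs ranged from -0.76 to -0.53 in HEK WT and from -1.08 to -0.44 in HEK UL1 KO.

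ZNF544 and ZFP82, 2 of the 3 members counted as higher in NO of HEK WT, showed opposite signs in the genotypes. Their low counts in CN of HEK WT are what singled them out, and they entered that fit through their NO libraries, so their values here are a description with no test. In HEK WT, ZNF544 had 0.228, 0.227 and 0.0840 CPM in CN and 0.533, 0.537 and 1.43 CPM in NO, a log2FC of 2.53 (SE 0.58), or of 1.74 without replicate 3 of NO and 2.11 without replicate 3 of CN. In HEK UL1 KO it had 9.49, 9.56 and 8.04 CPM in CN and 4.86, 4.68 and 5.05 CPM in NO, a log2FC of -0.92 (SE 0.14), which is close to the median of the members. ZFP82 had 1.94 in HEK WT (SE 0.50; 1.46 without replicate 3 of NO and 1.60 without replicate 3 of CN) and -0.85 in HEK UL1 KO (SE 0.16). With total counts the values in HEK UL1 KO were -0.17 for ZNF544 and -0.083 for ZFP82, neither of which passed. The summed level of the other-lineage markers was also higher in NO than in CN of both genotypes, as given above, and its part in the values of ZFP82 and ZNF544 was not tested.

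ZNF540 was the third member that was higher in NO of HEK WT (1.05, SE 0.37, adjusted p = 0.0374), a call that was lost without replicate 3 of NO (0.68, adjusted p = 0.111). ZSCAN18 was the single member higher in NO of HEK UL1 KO, with 0.130 ± 0.0413 CPM in CN and 0.362 ± 0.0260 in NO (1.43, SE 0.34). It entered that fit through its NO libraries, since its level in CN was low. The value is therefore a description with no test. With at least 10 counts required in every library, ZSCAN18 was not called. In HEK WT its value was 0.59 and did not pass (adjusted p = 0.256; 0.53 without replicate 3 of NO).

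**Figure D4:**
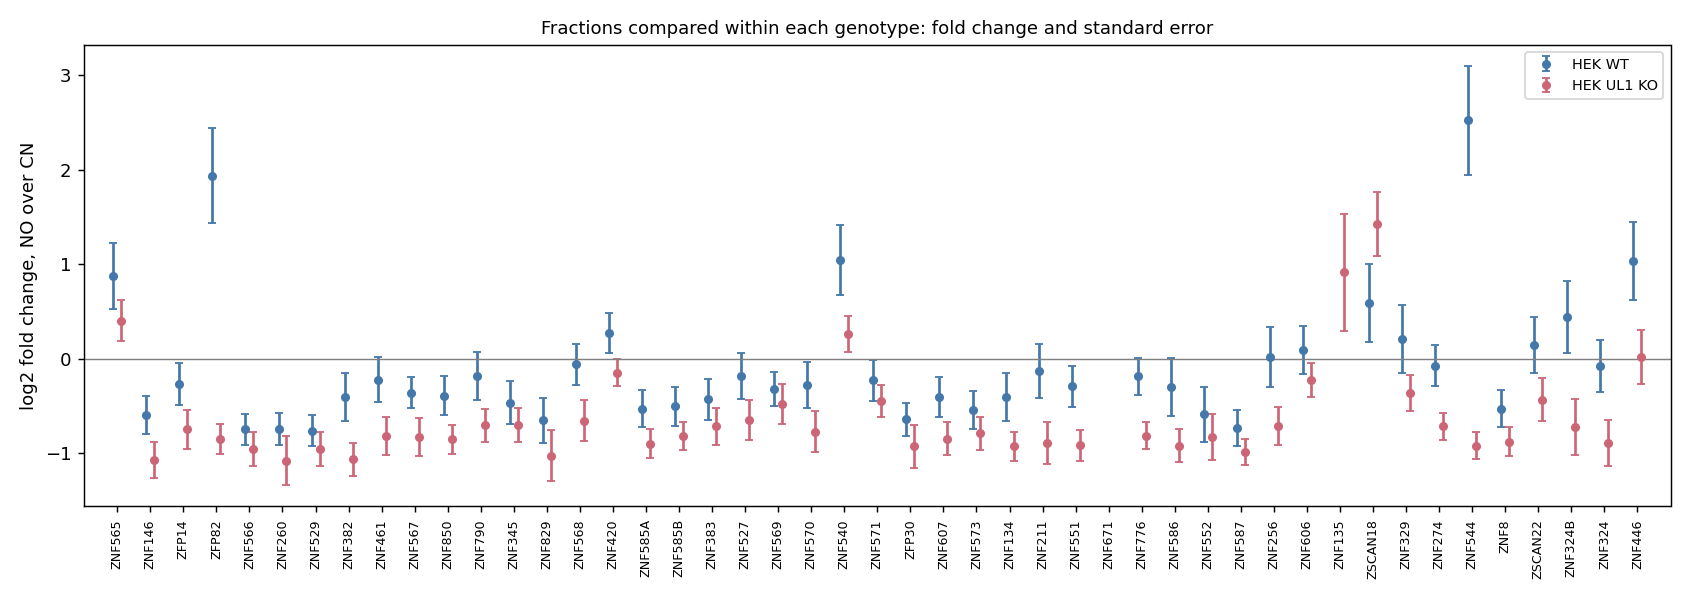
log2FC of NO over CN with its SE for each member in chromosomal order, in HEK WT (blue) and HEK UL1 KO (red). Most members lie below 0, with medians of -0.28 and -0.81; ZFP82 and ZNF544 lie at 1.94 and 2.53 in HEK WT but at -0.85 and -0.92 in the knockout, and genes left out of a fit have no point.

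Between the outermost members of the clusters lie 63 other genes, 13 of them zinc-finger genes by symbol. In CN, 15.6% of all genes tested were higher and 22.3% lower. Of the 13 zinc-finger genes, 10 were in the fit, 3 higher (ZNF793 2.14, ZNF814 1.61, ZNF875 0.88) and 1 lower (ZNF584 -0.58). Of the 50 remaining genes 20 were in the fit, 4 higher and 3 lower. The widest values among them belonged to antisense RNAs of members: ZNF790-AS1 had 26, 34 and 24 counts in HEK WT and 187, 218 and 161 in HEK UL1 KO, a log2FC of 3.00 in CN and of 1.44 in NO (1.69 without replicate 3 of HEK WT), called in both. The call of ZNF790-AS1 in NO was lost with total counts and with the replicate block. The member on its other strand, ZNF790, had a log2FC of 0.03. ZNF571-AS1, with 4, 5 and 5 counts against 24, 32 and 17, had 2.59, beside -0.15 for ZNF571 and 0.62 for ZNF540. Antisense reads may not be told apart from those of the partner where exons overlap. Genes called lower at 19q13.43 included the endogenous retroviral locus ERVK3-1 (-0.52) and A1BG-AS1 (-1.59).

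**Figure D5:**
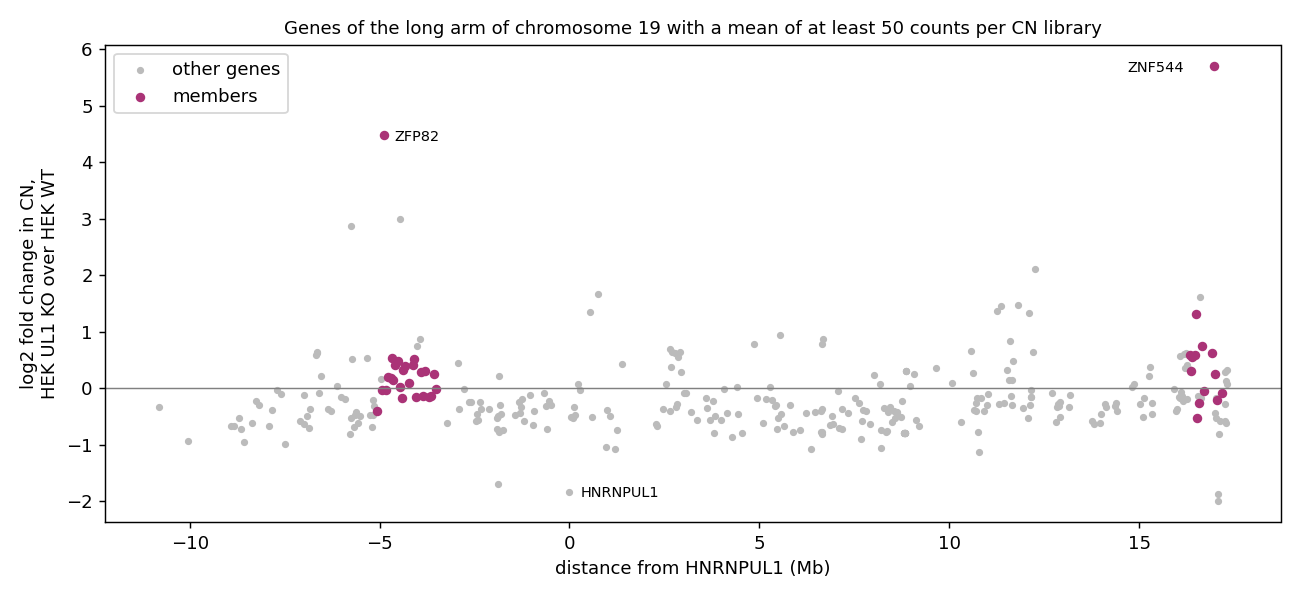
log2FC (HEK UL1 KO over HEK WT) in CN of genes of the long arm of chromosome 19 that averaged 50 or more counts in these libraries, by distance from HNRNPUL1 in Mb; purple points are members, grey points other genes. ZFP82 (4.47) and ZNF544 (5.69) stand above the other members of their clusters, which lie between -0.52 (ZNF552) and 1.31 (ZNF586) where they reach this count, and HNRNPUL1 lies at -1.83.

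Other clusters of zinc-finger genes also held single members with a wide difference among many with small ones. Over all genes, 15.6% were higher and 22.3% lower in CN (median 0.04), and 0.365% and 0.574% in NO. At 19p12, 10 of 30 genes in the fit were higher and 4 lower in CN, with a median of 0.18, and ZNF43 (4.35 in CN, 1.97 in NO) and ZNF730 (4.05 and 1.63) were called in both fractions. At 19q13.41, 10 of 35 were higher and 5 lower (median 0.10), and those called in both fractions were ZNF331 (2.11 and 1.24) and ZNF841 (-1.13 and -1.33). At 4p16, of 5 genes 2 were higher and 1 lower, with ZNF718 at 5.45 and 2.95 and ZNF595 at -2.69 and -1.41. Without replicate 3 of HEK WT all 6 were still called in NO, ZNF43 at 2.50, ZNF730 at 2.09, ZNF331 at 1.36, ZNF841 at -1.45, ZNF718 at 3.01 and ZNF595 at -1.11. In that fit 9.87% of all genes were higher and 15.3% lower. With total counts in place of TMM none of the 6 was called in NO, where 7 of all genes were higher and 3 lower. With the replicate block ZNF331, ZNF841 and ZNF595 were not called in NO, where 106 of all genes were higher and 119 lower. The 19q13 members were not tested against these clusters.

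Of 22 corepressor and heterochromatin genes, through which KRAB proteins act, 4 were higher and 8 lower in CN, where 15.6% and 22.3% of all genes were, and the median log2FC was -0.12. TRIM28, the corepressor itself, was at -0.57 (SE 0.11), the deacetylase HDAC1 at -0.99 (SE 0.11) and SETDB1, which did not pass, at 0.03 (SE 0.09). Of 12 genes of DNA methylation, DNMT3B and MBD3 were higher, and 7 were lower, among them UHRF1, which keeps methylation through replication, the demethylation enzymes TET1, TET2, TET3 and TDG, and the methyl-CpG reader MBD2. In NO, edgeR called 0.365% of all genes higher and 0.574% lower, and 0 genes of either list. At an unadjusted p under 0.05 in edgeR, 3 and 2 genes were lower. DESeq2 called 2 and 0 lower, with 1.40% of all genes lower. The median log2FCs in NO were -0.35 and -0.47, with 20 of 22 and 11 of 12 genes below 0. Over all genes the median was 0.00, with 17325 of 34836 below 0. Values below 0 were not particular to these lists. Over 1387 genes of chromosome 19 that are not members the median was -0.24, with 966 below 0. Of the zinc-finger genes at 19q13.41 and 19p12, 28 of 39 and 13 of 35 were below 0. Values of these lists without replicate 3 of HEK WT are not reported here.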

How the data were processed

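Both genotypes and both fractions were analysed, with 12 libraries in all. The authors deposited raw counts per gene, 1 table per fraction, after trimming with Cutadapt 3.7, alignment of 75-base reads to GRCh38 with STAR 2.7.8 allowing 20 alignments per read, and counting with featureCounts. The counting options, strand setting and annotation version are not given in the sources used here.

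The counts were tested with edgeR 4.0.16 (R 4.3.3, limma 3.58.1) by the quasi-likelihood F test within a fraction or a genotype, with filterByExpr (minimum count 10, minimum total 15), TMM over all genes, Benjamini-Hochberg adjustment over all genes tested and no replicate block. Genes were called at an adjusted p under 0.05. Alternatives were DESeq2 1.42.0, total counts, TMM without rRNA genes, no filter, at least 10 counts in every library, a replicate block and leaving out each library. Levels per kb used the exon union of GENCODE 44; positions are from RefSeq GRCh38.p14. Python 3.11.15, pandas 2.3.3, numpy 2.4.6 and matplotlib 3.10.9 were used.

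The members and the gene lists were chosen with earlier results of these data known. The genes named were HNRNPUL1, ZFP82, ZNF544, ZNF274 and TRIM28, the 4 largest rises and 4 largest falls per cluster in CN at a mean of at least 50 counts, the 4 members highest and lowest in NO of HEK WT among those called, paralog pairs, members under a filter, members called in NO, and list genes called in both fractions; others were named after their values were seen, and some genes are not reported here by name. On simulated counts with 200 genes changed by 2 on the log2 scale, edgeR recovered 198 (HEK UL1 KO over HEK WT in CN, 27234 genes), 196 (the same in NO, 34836 genes), 183 (NO over CN in HEK WT, 29340 genes) and 200 (NO over CN in HEK UL1 KO, 34468 genes), with 8.76, 4.85, 9.85 and 8.68% false calls.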

Additional observations from a re-analysis of the deposited data

Results flagged for a closer look

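For 2 members the change between fractions had opposite signs in the genotypes, in every library of each, with TMM over all 12 libraries. Both were singled out by their low counts in CN of HEK WT, and entered the HEK WT fit through their NO libraries. Their values here are a description with no test. ZFP82 had a log2 fold change of NO over CN of 1.94 in HEK WT and of -0.85 in HEK UL1 KO. ZNF544 had 2.53 in HEK WT and -0.92 in HEK UL1 KO. With total counts in place of TMM the values in HEK UL1 KO were -0.083 and -0.17, and neither passed. The difference between the genotypes was not tested. Groups of 3 libraries are too small for a test of single outlying libraries.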

How the results depend on the processing

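ZFP82 and ZNF544 kept their direction under all alternatives that gave a value, and in CN they were called in each of these (log2 fold changes of 4.26 to 4.64 and of 5.41 to 5.90 when 1 library was left out). With at least 10 counts required in every library, neither could be fitted in CN, because the HEK WT counts are below that minimum. In NO, total counts took the calls from both (2.19 and 2.68, 0 members called), and leaving out replicate 1 of HEK WT took that of ZFP82 (1.72). Total counts moved the median of all genes from 0.04 to 0.24 in CN and from 0.00 to 0.40 in NO; the median of the members less that of all genes went from 0.22 to 0.21 and from -0.06 to -0.01. In CN this distance was 0.009 with DESeq2, 0.045 without a filter and 0.28 with at least 10 counts in every library, and in NO -0.12, -0.11 and 0.065.

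The number of members called with 1 library left out was 11 to 17 for CN (11 without replicate 1 of HEK UL1 KO), 1 to 6 for NO (1 without replicate 1 and 6 without replicate 3 of HEK WT), 7 to 21 for NO over CN in HEK WT (7 without any of the CN libraries, 8 without replicate 1 of NO and 21 without replicate 2 of NO) and 34 to 38 for NO over CN in HEK UL1 KO. For NO over CN, total counts gave 2 calls in HEK WT and 7 in HEK UL1 KO, all higher in NO, against 3 higher and 10 lower and 1 higher and 36 lower with TMM, at least 10 counts in every library gave 8 (3 higher, 5 lower) and 18 (2 higher, 16 lower), and TMM without rRNA genes gave 8 in HEK WT. DESeq2 kept 12 of the 18 calls in CN. The medians of the 19q13.12 and 19q13.43 members in CN were 0.40 and 0.48 with total counts, and 0.14 to 0.24 and 0.23 to 0.42 with 1 library left out. In NO that of 19q13.12 was 0.38 with total counts and -0.27 to 0.12 with 1 library left out, and that of 19q13.43 was 0.46 with total counts, -0.082 with DESeq2, -0.12 without a filter, 0.15 with at least 10 counts in every library and -0.16 to 0.038 with 1 library left out. The causes of these shifts were not tested.

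Whether libraries with the same replicate number belong together is not given in the sources used here. Their deviations from the mean of their group were correlated across genes. Between genotypes the correlations were -0.01, 0.04 and -0.02 in CN and -0.29, -0.17 and -0.34 in NO. Between NO and CN they were -0.04, -0.13 and -0.19 in HEK WT and -0.07, -0.29 and -0.26 in HEK UL1 KO. These values cannot exclude a pairing, since a library that stands apart shifts the deviations of its whole group. With the replicate block, 16 members were called in CN, 2 in NO, 5 for NO over CN in HEK WT (ZNF544 higher, ZNF260, ZNF529, ZNF566 and ZNF587 lower, and ZFP82 not called at 1.86) and 35 for NO over CN in HEK UL1 KO.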
